A study of Mus musculus with 48 samples.

Results

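The cells compared were 2 sorted populations of MKOS reprogramming that differ in the Nanog-GFP reporter, 3NG- and 3NG+. Both were E-CAD+, CD44- and ICAM1+ on day 10, and 3NG+ cells had in addition gained GFP from the reporter. There were 3 libraries of each, which are 6 of the 48 libraries in the series, chosen by their labels and not by any measured value. RNA was sequenced with the STRT method, which tags the 5′ end of each transcript, and reads were counted for 24264 annotated transcripts.

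The reprogramming cells of both groups came from mouse embryonic fibroblasts (MEFs) obtained from chimeric embryos. The chimeras were made with TNG MKOS embryonic stem cells (ESCs), a targeted line that carries GFP in one Nanog allele and the MKOS cassette (Myc, Klf4, Oct4 and Sox2, under doxycycline control) in the Sp3 locus. These transgenic MEFs were diluted with wild-type MEFs, cultured with doxycycline and vitamin C, and sorted by flow cytometry at 20000 to 100000 cells a sample. The groups therefore share the cassette, the drug, the vitamin, the day and 3 of the 4 sorted properties. The growth notes give 10 or 15 days for sorted cells in general, and the design gives day 10 for these. The labels number the libraries 1 to 3 in each group without saying whether a number marks a separate culture. The p-values therefore rest on a spread between libraries that may be technical. It was estimated within the 20 conditions of all 48 libraries together. For this comparison 1 targeted cell line supplied the cells.

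The 3NG- libraries held 8954487, 6353439 and 8755166 reads on transcripts, and the 3NG+ libraries held 4754632, 5062427 and 9730611. A count of 3 reads corresponds to between 0.301 and 0.636 CPM (counts scaled to library size, here by TMM) in these 6 libraries, and lower values were treated as near the detection limit. The 3NG+ replicate 1 library had 33.1% of its reads on repeats against 16.9% to 22.9% in the other 5. Across the genes tested (Pearson correlation of log2(CPM + 1)), 3NG- replicate 3 correlated with 3NG+ replicate 3 at 0.9556, between its values with 3NG- replicates 1 and 2 (0.9536 and 0.9571), and 3NG+ replicate 3 correlated less with 3NG+ replicate 1 (0.9531). Values below are CPM scaled by TMM, and each gene's 3 values are given in the order of replicates 1, 2 and 3. Changes are edgeR log2 fold changes of 3NG+ over 3NG- with an SE, and a gene was called where the FDR, adjusted by Benjamini-Hochberg across 15630 tested genes, did not exceed 0.05.

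Nanog is a homeodomain transcription factor of the naive pluripotency network, in which it acts with Oct4, Sox2, Esrrb and Klf factors on a largely shared set of enhancers. Its promoter is silent in fibroblasts, and reactivation of the endogenous gene is a widely used sign that a cell under forced factor expression has moved close to an induced pluripotent stem cell (iPSC). The same stage is known for DNA demethylation at the promoters of germline genes.

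A total of 247 genes, 1.58% of those tested, differed between 3NG- and 3NG+ cells. Of these, 87 were higher in 3NG+ cells (0.557% of the genes tested) and 160 were lower (1.02%). The groups did not overlap for 82 of the 87 and for 152 of the 160, while over all genes tested they did not overlap in the higher direction for 10.5% and in the lower direction for 13.0%. The median change was 3.09-fold among the genes that rose and 3.70-fold among those that fell. A further measure of the strength of the contrast is the unadjusted count, 2495 genes at p under 0.05 (16.0%). The number of calls depended on single libraries. Without 3NG+ replicate 2 there were 56, without 3NG- replicate 1 there were 63, without 3NG- replicate 2 there were 83, and without 3NG+ replicate 3 there were 148, whereas leaving out 3NG+ replicate 1 or 3NG- replicate 3 gave 279 and 233. Scaling by library totals instead of TMM shifted the median change of all genes from −0.039 to −0.21 (log2) and gave 55 higher and 320 lower.

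**Figure D1:**
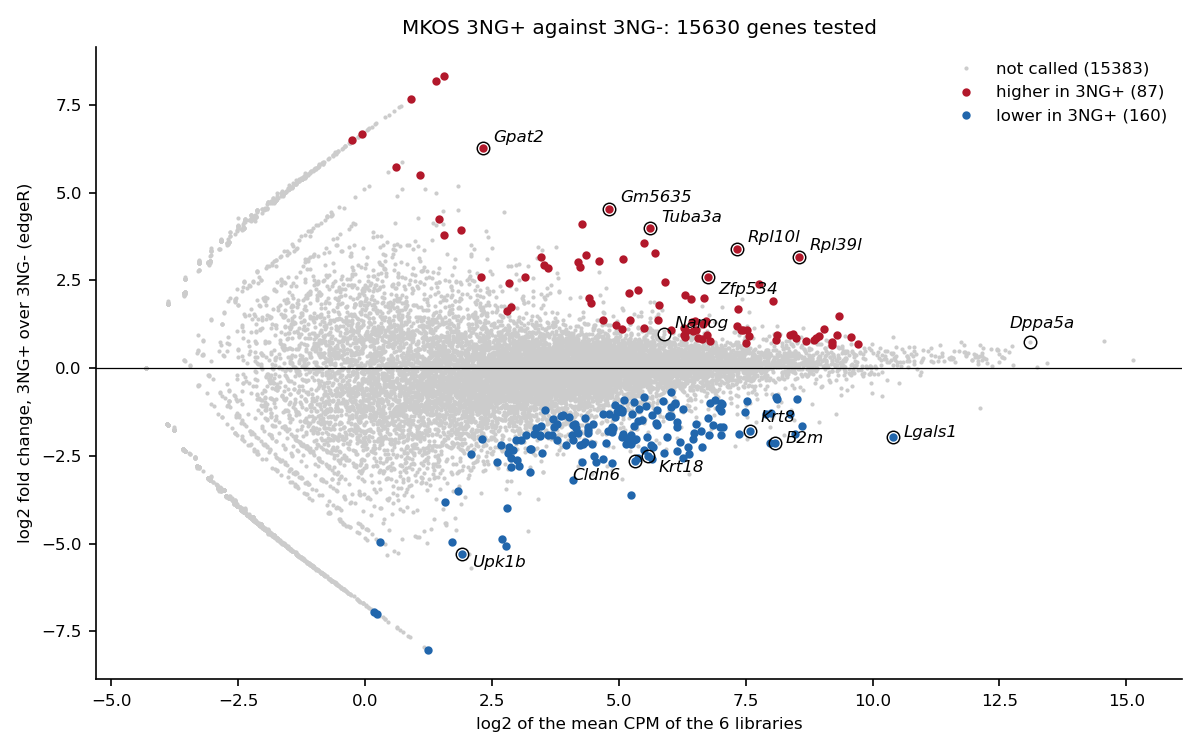
Change of each tested gene between MKOS 3NG- and 3NG+ cells (vertical axis, log2) against its mean level over the 6 libraries (horizontal axis, log2 CPM); red, 87 genes higher in 3NG+ cells; blue, 160 lower; grey, not called; circles mark labelled genes. Rpl39l and Rpl10l stood highest among the abundant genes that rose, whereas Nanog lay among the genes not called; genes on the outer curves have no read in one group, and their fitted change depends on the prior count.

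None of the 4 genes tied to the sort passed the main test, and for 3 of them this depended on the setting. Nanog itself was at 21.3, 33.02 and 66.5 CPM in the 3NG- libraries and 49.3, 92.6 and 95.2 CPM in the 3NG+ libraries (log2 fold change 0.97 ± 0.45 SE, FDR = 0.282). Its lowest 3NG+ library lay below its highest 3NG- library, so the groups overlapped. The reporter marks 1 allele and the reads do not separate the alleles. How much the reporter allele adds to these values was not tested. Cdh1, which encodes E-CAD, was at 111, 161 and 129 CPM in the 3NG- libraries and 69.8, 67.2 and 95.98 CPM in the 3NG+ libraries without overlap (log2 fold change −0.78 ± 0.40 SE, FDR = 0.325). Icam1 was at 11.8, 15.6 and 17.9 CPM against 11.8, 1.48 and 12.2 CPM (FDR = 0.507) and Cd44 at 29.5, 20.01 and 18.5 CPM against 23.7, 2.97 and 5.61 CPM (FDR = 0.477), both with overlap and both lowest in 3NG+ replicate 2. With no low-count filter Nanog (FDR = 0.0158) and Cd44 (FDR = 0.0151) were called. Without 7 sorted libraries that the study did not average, which include 3NG- replicate 3, the log2 fold change of Nanog was 1.58 and it was called (FDR = 0.0296). With a replicate block in the 6 libraries alone Nanog, Cd44 and Cdh1 were called.

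The reprogramming factors and the cassette locus showed 0 called genes of 5. The table does not separate reads of the cassette from those of the endogenous genes. STRT reads mark 5′ ends, and how much the single cassette transcript adds to each gene was not tested. Pou5f1 (Oct4) was at 703, 687 and 785 CPM in the 3NG- libraries and 1018, 1049 and 942 CPM in the 3NG+ libraries without overlap (log2 fold change 0.47 ± 0.34 SE, FDR = 0.521), and Sox2 was at 83.7, 94.8 and 142 CPM against 135, 164 and 169 CPM (log2 fold change 0.55 ± 0.36 SE, FDR = 0.476). The log2 fold changes of Klf4, Myc and Sp3 were 0.079, 0.18 and 0.0084, each smaller than its SE.

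Among 20 naive pluripotency transcription factors, all of them tested, 1 was called. The called gene was Rex2, which despite its name is one of the chromosome 4 zinc finger genes described below and not Zfp42 (Rex1). For 10 of the 20 the 3 libraries of 3NG+ cells all lay above those of 3NG- cells (10.5% of all genes did), and the median log2 fold change of the list was 0.66, against −0.039 over all genes. With no low-count filter 7 of the 20 were called higher (1.42% of all genes under that setting), and with a replicate block in the 6 libraries alone 9 were (3.78%). Zfp42, a classical marker of naive ESCs, was at 462, 399.5 and 609 CPM in the 3NG- libraries and 759, 1112 and 902 CPM in the 3NG+ libraries (log2 fold change 0.92 ± 0.41 SE, FDR = 0.26). Mybl2, a cell cycle transcription factor abundant in ESCs, was at 89.2, 146 and 193 CPM against 228, 248 and 298 CPM (log2 fold change 0.85 ± 0.31 SE, FDR = 0.146). Esrrb, a nuclear receptor that sustains self-renewal, was at 75.8, 68.2 and 104 CPM against 106, 143 and 119 CPM (log2 fold change 0.57 ± 0.36 SE, FDR = 0.443). For these 3 factors the groups did not overlap, yet the difference did not pass the test. Tfcp2l1, a LIF-responsive factor, pointed the other way at 76.2, 103 and 139 CPM against 55.2, 70.1 and 80.2 CPM (log2 fold change −0.63 ± 0.48 SE, FDR = 0.558).

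Of 29 pluripotency-associated genes 1 was called (0.557% of all genes tested were called higher), 12 did not overlap in the higher direction (10.5% of all genes) and the median was 0.74. The number called higher was 15 with a replicate block in the 6 libraries alone (3.78% of all genes under that setting), 10 with no low-count filter (1.42%), 8 without the 7 libraries (1.35%), 7 with the 6 libraries alone (1.99%) and 0 or 1 with 1 library left out. Mkrn1, which encodes a RING-type ubiquitin ligase, rose from 178, 192 and 202 CPM to 409.9, 369 and 323 CPM (log2 fold change 0.95 ± 0.24 SE, FDR = 0.0343). Dppa5a was the most abundant member and stood at 6056, 6897 and 6958 CPM in the 3NG- libraries and 9663, 11964 and 11532 CPM in the 3NG+ libraries (log2 fold change 0.74 ± 0.41 SE, FDR = 0.38). Dppa2 and Dppa4, partner proteins that bind the promoters of germline and early embryonic genes, had log2 fold changes of 1.06 and 1.20 (FDR = 0.257 and 0.224). Every 3NG+ library was above every 3NG- library for Dppa5a, Dppa2 and Dppa4. In contrast, Dppa3 was at 83.2, 112 and 250.00 CPM against 23.7, 64.2 and 142 CPM (log2 fold change −0.94 ± 0.68 SE, FDR = 0.526) and Spp1 had a log2 fold change of 0.11, with overlapping groups for both.

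The promoters of the 2 called genes of these lists are shown because they differ in base composition, with 51% and 68.5% G and C. Each sequence here and below is RefSeq sequence of GRCm38.p6, 150 bases before to 50 bases after the annotated start site, read on the gene's strand, with matches to the searched motifs in capitals. Rex2 lies at chr4:147021700-147021899 on the plus strand and has 5 CpG dinucleotides in this window. Mkrn1 lies at chr6:39420320-39420519 on the minus strand and has 20. In both windows the capitals mark CCAAT, the core of NFY sites, or its reverse complement.
Rex2: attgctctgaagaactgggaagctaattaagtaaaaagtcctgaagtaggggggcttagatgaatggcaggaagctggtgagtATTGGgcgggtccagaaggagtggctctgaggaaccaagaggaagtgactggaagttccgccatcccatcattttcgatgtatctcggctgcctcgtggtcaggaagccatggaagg
Mkrn1: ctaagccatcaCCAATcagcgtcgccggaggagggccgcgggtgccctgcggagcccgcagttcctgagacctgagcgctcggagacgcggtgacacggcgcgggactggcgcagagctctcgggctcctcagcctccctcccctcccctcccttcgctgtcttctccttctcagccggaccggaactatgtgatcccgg

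Among the 15 largest rises were several genes known from germ cells, picked out here one by one and not tested as a group. Apart from Rpl39l, Rpl10l and Hsf2bp, none of the 15 exceeded 10.02 CPM, the value of both Cox7b2 and Tuba3a in replicate 3, in a 3NG- library. Rpl39l and Rpl10l, germ cell paralogues of the ribosomal protein genes Rpl39 and Rpl10, were the most abundant. Rpl39l rose from 53.9, 75.9 and 94.2 CPM to 517, 821 and 687 CPM (log2 fold change 3.18 ± 0.36 SE, FDR = 8.24e-07). Rpl10l rose from 23.3, 23.9 and 35.6 CPM to 210.2, 382 and 285 CPM (log2 fold change 3.40 ± 0.41 SE, FDR = 2.24e-06). No library of one group came near those of the other in either gene.

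Tuba3a, a testis-type alpha-tubulin, rose from 4.79, 2.43 and 10.02 CPM to 45.5, 138 and 94.5 CPM (log2 fold change 3.98 ± 0.51 SE, FDR = 1.27e-05). Cox7b2, a testis-type subunit of cytochrome c oxidase, rose from 7.03, 3.57 and 10.02 CPM to 50.1, 154 and 44.3 CPM (log2 fold change 3.57 ± 0.65 SE, FDR = 0.00184), and Cyct, the testis form of cytochrome c, rose from 2.02, 1.72 and 2.51 CPM to 20.1, 67.2 and 22.9 CPM (log2 fold change 4.11 ± 0.85 SE, FDR = 0.0078). In all of these, 3NG+ replicate 2 was the highest library and no library overlapped with the other group.

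The following genes with roles in meiosis or the piRNA pathway were also picked one by one. Hsf2bp, a factor of meiotic recombination, rose from 8.73, 3.57 and 16.8 CPM to 81.98, 121 and 84.01 CPM (log2 fold change 3.28 ± 0.51 SE, FDR = 3.85e-04). Hormad1, a component of the meiotic chromosome axis, rose from 2.77, 3.14 and 7.52 CPM to 24.6, 43.6 and 31.8 CPM (log2 fold change 2.88 ± 0.60 SE, FDR = 0.00819). Smc1b (a meiotic cohesin subunit), Sohlh2 (a germ cell transcription factor) and Fkbp6 (a piRNA pathway protein) rose from at most 1.20 CPM in any 3NG- library to means of 6.86, 5.37 and 5.15 CPM, with FDRs of 0.0304, 0.0282 and 0.0317. Gpat2, an acyltransferase that acts in the piRNA pathway, had 3 reads over the 3NG- libraries against 185 over the 3NG+ libraries, a pooled ratio of 85.9 with a 95% exact interval of 28.9 to 420.5 that covers counting error only (FDR = 0.00307).

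Of the 87 genes that rose, 7 lie on the X chromosome (8.05%, against 3.79% of genes tested and 6.25% of the 160 that fell) and 14 on chromosome 4 (16.1%, against 6.24% and 6.25%), 2 chromosomes chosen after their values were seen. Some of them have near-identical copies. Xlr5b and 1700013H16Rik had no read in 3NG- cells and were at least 42.7-fold and 39.02-fold higher in 3NG+ cells, comparing pooled reads with a floor of 3 reads over the 3NG- group. Gm5635 rose from 2.66, 3.00 and 1.30 CPM to 38.6, 91.7 and 31.4 CPM (log2 fold change 4.54 ± 0.74 SE, FDR = 7.64e-04). For Xlr5b and Gm5635, 0% and 0.669% of reads over all 48 libraries had a unique position in the genome, so reads could have been shared between copies. Of the 87 genes that rose, 20 had under 50% uniquely placed reads, as did 5.66% of all genes tested and 7 of the 160 genes that fell.

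A list of 22 germline genes, of which 21 were tested, had 2 called higher (Tuba3a and Hormad1; 0.557% of all genes), 10 without overlap in the higher direction (10.5% of all genes) and the highest median among the 34 lists at 1.65. Members that did not pass the test were Dazl at 4.15, 1.72 and 2.21 CPM against 8.32, 16.9 and 13.6 CPM (FDR = 0.121), Sycp3 at 8.41, 8.72 and 10.9 CPM against 29.2, 51.7 and 38.5 CPM (FDR = 0.0959) and Rhox5 at 219.9, 239.7 and 276 CPM against 459, 584 and 593 CPM (FDR = 0.161). Dazl is an RNA-binding protein of germ cells, and Sycp3 a protein of the synaptonemal complex. Ddx4, the germ cell helicase VASA, stayed at or below 2.16 CPM in every library. The count for this list was between 1 and 3 when any 1 of the 6 libraries was left out, and 8 with no low-count filter (1.42% of all genes).

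Promoters of Tuba3a, Hormad1 and Cox7b2 are shown because they hold repeated motif matches. Capitals mark CCAAT (either strand) in Tuba3a, at chr6:125286032-125286231 on the minus strand, and the E-box CACGTG in Hormad1, at chr3:95559527-95559726 on the plus strand. In Cox7b2, at chr5:71548156-71548355 on the minus strand, they mark 3 reverse CCAAT matches and a reverse match to GGGCGTG, a KLF-type element. These genes were chosen for display after their values were seen.
Tuba3a: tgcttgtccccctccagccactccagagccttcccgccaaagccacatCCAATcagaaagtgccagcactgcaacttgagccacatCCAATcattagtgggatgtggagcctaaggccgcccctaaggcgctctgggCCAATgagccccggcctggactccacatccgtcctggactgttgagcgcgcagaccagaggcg
Hormad1: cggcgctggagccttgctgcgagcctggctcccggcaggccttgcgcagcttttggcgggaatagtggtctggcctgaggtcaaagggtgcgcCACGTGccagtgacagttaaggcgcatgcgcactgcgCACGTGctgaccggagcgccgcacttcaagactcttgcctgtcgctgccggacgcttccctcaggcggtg
Cox7b2: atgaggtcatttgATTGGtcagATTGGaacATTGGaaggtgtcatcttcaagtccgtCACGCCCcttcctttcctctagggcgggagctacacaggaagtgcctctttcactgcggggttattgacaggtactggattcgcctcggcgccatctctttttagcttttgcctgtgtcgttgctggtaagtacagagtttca

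**Figure D2:**
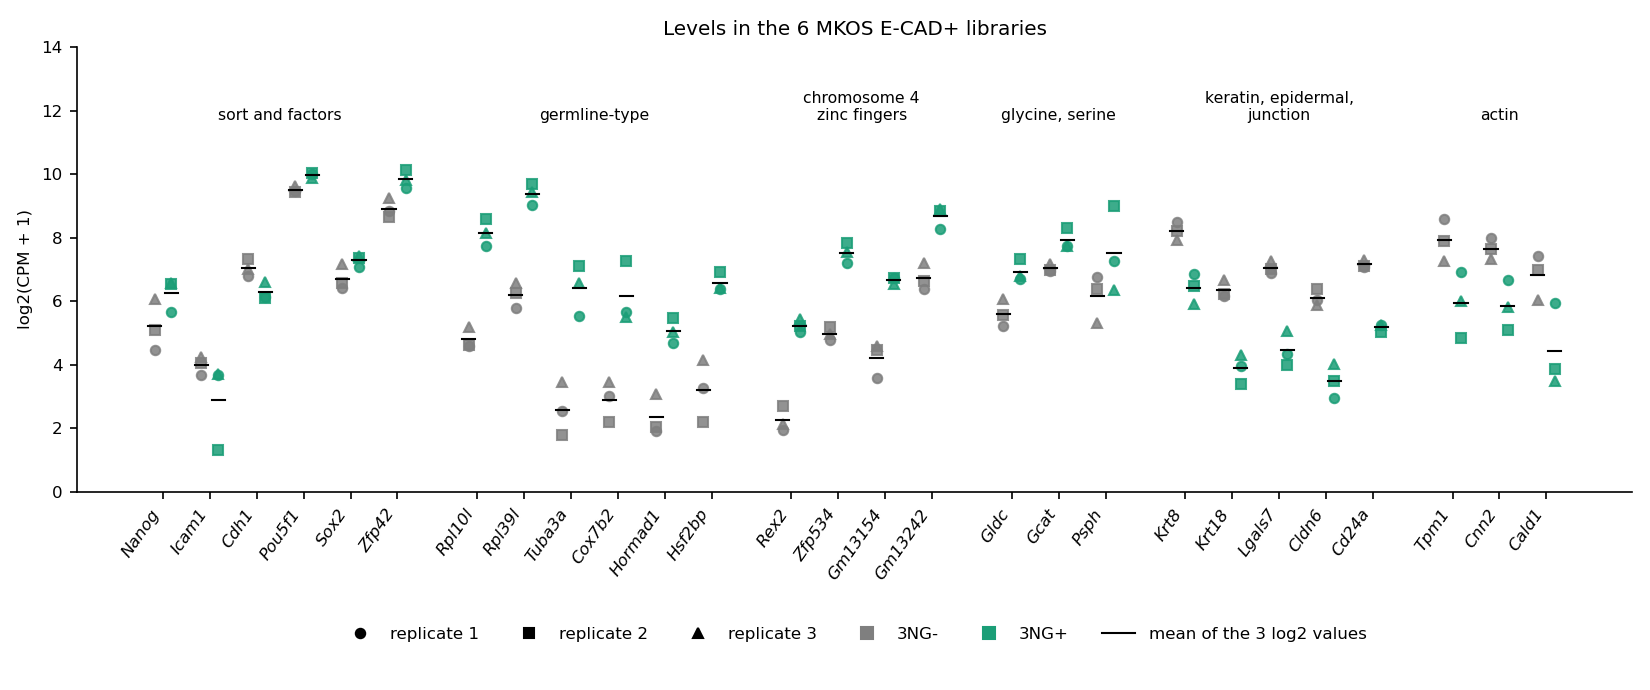
Levels of 27 genes in the 6 libraries (vertical axis, log2 of CPM + 1); grey, 3NG-; green, 3NG+; symbols give the replicate, black bars the mean of the 3 log2 values. The heading germline-type joins genes picked from those that rose and is no tested list. These and the chromosome 4 genes lay far apart between the groups, Nanog and Icam1 overlapped, and keratin, junction and actin genes lay lower in 3NG+ cells.

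On chromosome 4, 8 zinc finger genes that lie in one stretch rose. The genes were Zfp534, Rex2, Gm13247, Gm13154, Gm13242, Gm13212, Gm13051 and 2610305D13Rik. They lie in a cluster of KRAB zinc finger genes, a family known for binding transposable elements and recruiting the co-repressor TRIM28. Zfp534 rose from 26.4, 35.3 and 30.4 CPM to 145, 227 and 185 CPM (log2 fold change 2.60 ± 0.43 SE, FDR = 5.45e-04). Gm13242 rose from 81.9, 99.5 and 147 CPM to 308, 458 and 476 CPM (log2 fold change 1.92 ± 0.39 SE, FDR = 0.00459), and Gm13154 from 11.1, 21.3 and 23.3 CPM to 106, 106 and 91.6 CPM (log2 fold change 2.44 ± 0.46 SE, FDR = 0.00199). Rex2 rose from 2.87, 5.57 and 3.41 CPM to 31.9, 36.02 and 42.3 CPM (log2 fold change 3.22 ± 0.57 SE, FDR = 0.00126). Between the outermost of the 8 genes (chr4:145617045-147673502, GRCm38) the table holds 18 transcripts. Of the 16 tested, 8 were called higher (0.557% of all genes), 15 had a fold change above 0 (45.2% of all genes) and the median was 2.20. Without 3NG- replicate 1 the called number was 4, and in the other 5 leave-one-out fits it was 6 to 8. Their summed level was 417, 503 and 608 CPM in the 3NG- libraries and 1476, 1914 and 1901 CPM in the 3NG+ libraries. The stretch was chosen after these values were seen. Unique placement was between 0.0255% (Gm13051) and 77.1% (Gm13154) of reads, so the split of reads among the copies is uncertain. Trim28 itself rose from 264, 331 and 409.7 CPM to 572, 569 and 675 CPM (log2 fold change 0.85 ± 0.22 SE, FDR = 0.03); it was named after its values were seen.

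The promoters of 2 further members, Zfp534 at chr4:147702582-147702781 (minus strand) and Gm13154 at chr4:147553127-147553326 (plus strand), can be set beside that of Rex2. Zfp534 and Gm13154 share an unbroken run of 50 bases, and Gm13154 and Rex2 one of 42. A reverse CCAAT match stands in all 3, and in Zfp534 it overlaps a GGGCGTG match.
Zfp534: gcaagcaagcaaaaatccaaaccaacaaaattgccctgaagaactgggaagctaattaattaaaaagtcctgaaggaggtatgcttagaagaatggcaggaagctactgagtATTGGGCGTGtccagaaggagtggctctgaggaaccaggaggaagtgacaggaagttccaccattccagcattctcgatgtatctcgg
Gm13154: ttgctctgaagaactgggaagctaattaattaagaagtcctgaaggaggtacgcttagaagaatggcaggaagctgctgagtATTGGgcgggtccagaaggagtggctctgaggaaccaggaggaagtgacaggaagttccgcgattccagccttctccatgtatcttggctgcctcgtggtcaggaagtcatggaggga

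Among ribosomal protein genes, 10 rose (0.557% of all genes did) and 0 fell, the germ cell paralogues included. Of 85 tested genes with the symbols of cytosolic ribosomal proteins, 82 had a log2 fold change above 0 (45.2% of all genes) and 58 did not overlap in the higher direction (10.5% of all genes), with a median of 0.50. The number called was 3 without 3NG- replicate 2 or 3NG+ replicate 2, and 5 to 11 in the other leave-one-out fits. It was 22 with no low-count filter (1.42% of all genes under that setting) and 23 with the 6 libraries alone (1.99%). By library totals it was 6 (0.352%). Under scaling by library totals 79 remained above 0 with a median of 0.33, relative to a median of −0.21 for all genes. Rpl27a was at 224, 248 and 211 CPM in the 3NG- libraries and 435, 454 and 413 CPM in the 3NG+ libraries (log2 fold change 0.93 ± 0.19 SE, FDR = 0.00459). Rpl35a was at 640.2, 653 and 637 CPM against 1032, 983 and 1063 CPM (log2 fold change 0.67 ± 0.16 SE, FDR = 0.0237). The 3 libraries of each group were close together for these genes, and their rises were under 2-fold. The group summed to 160950, 156546 and 136438 CPM in 3NG- cells and to 170641, 238949 and 201331 CPM in 3NG+ cells. This group was formed after the values were seen, and many of its members have processed pseudogenes that can share reads.

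Among 19 amino acid and one-carbon metabolism genes, 4 rose (0.557% of all genes did) and 0 fell, with a median of 0.91. Gldc, a subunit of the glycine cleavage system, rose from 35.9, 46.2 and 65.8 CPM to 103, 159 and 109 CPM (log2 fold change 1.32 ± 0.31 SE, FDR = 0.0194). Gcat, which turns the product of threonine dehydrogenase into glycine, rose from 124, 124 and 144 CPM to 213, 313 and 211 CPM (log2 fold change 0.91 ± 0.21 SE, FDR = 0.0176). Psph, the last enzyme of serine synthesis, rose from 108, 83.3 and 39.2 CPM to 152, 509.8 and 80.2 CPM (log2 fold change 1.68 ± 0.42 SE, FDR = 0.0244), and Mthfd1l, a mitochondrial folate enzyme, from 25.9, 15.9 and 12.7 CPM to 48.5, 56.1 and 24.6 CPM (log2 fold change 1.24 ± 0.33 SE, FDR = 0.045). The groups overlapped for Psph and Mthfd1l, and Psph was highest in 3NG+ replicate 2. Tdh, threonine dehydrogenase, was at 348, 439 and 539 CPM against 473, 540.1 and 673 CPM (log2 fold change 0.35 ± 0.34 SE, FDR = 0.673). No member was called without 3NG- replicate 2 or without 3NG+ replicate 2, and over the leave-one-out fits the count ran from 0 to 7. The list median ran from 0.42 to 1.21 over the same fits.

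Chromatin regulators included a few called genes. Of 12 genes of Polycomb repressive complex 2, which places a methyl mark on histone H3, 2 rose (0.557% of all genes did), both accessory subunits. E130012A19Rik (Epop) rose from 58.1, 54.2 and 43.4 CPM to 148, 124 and 119 CPM (log2 fold change 1.33 ± 0.33 SE, FDR = 0.0238), and Mtf2 from 53.9, 52.9 and 64.2 CPM to 132, 119 and 107 CPM (log2 fold change 1.07 ± 0.29 SE, FDR = 0.0498). Among 9 tested DNA methylation writers and erasers 1 rose (0.557% of all genes). Uhrf1, which guides DNMT1 to newly replicated DNA, rose from 117, 116 and 181 CPM to 233, 199.6 and 251 CPM (log2 fold change 0.72 ± 0.20 SE, FDR = 0.0462). Tet1 and Dnmt1 had log2 fold changes of 0.68 and 0.085 (FDR = 0.427 and 0.902). Both lists had 0 calls without 3NG- replicate 1, 3NG+ replicate 1, 3NG- replicate 2 or 3NG+ replicate 2, and under scaling by library totals. The Polycomb list had at most 1 call with 1 library left out.

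Among the genes that fell were keratins, keratinocyte genes and genes of the actin cytoskeleton. Of the keratin genes, 3 were called and all 3 were lower (1.02% of all genes were). Krt18 fell from 69.9, 73.8 and 100.04 CPM to 14.6, 9.53 and 18.8 CPM (log2 fold change −2.49 ± 0.43 SE, FDR = 8.90e-04). Krt8, the partner of Krt18 in simple epithelia, fell from 361, 297 and 240.2 CPM to 114, 87.5 and 59.3 CPM (log2 fold change −1.79 ± 0.47 SE, FDR = 0.0363), and Krt19 from 38.4, 23.6 and 55.3 CPM to 2.23, 6.36 and 11.4 CPM (log2 fold change −2.51 ± 0.64 SE, FDR = 0.0317). Of 15 tested keratin genes, 8 lay lower in every 3NG+ library (13.0% of all genes did) and the list median was −2.49, the lowest of the 34 lists. The list summed to 1131, 777 and 632 CPM in the 3NG- libraries and 327, 165 and 143 CPM in the 3NG+ libraries, and between 1 and 3 members were called lower when 1 library was left out, with 1 without 3NG- replicate 1 or 3NG+ replicate 2. The number was 5 with the 6 libraries alone (2.58% of all genes under that setting) and 8 with no low-count filter (3.07%). Krt5 and Krt14, which mark basal keratinocytes, were at 0.639, 0.143 and 0 CPM against 0, 0 and 0 CPM and at 86.7, 60.04 and 7.52 CPM against 19.07, 0.636 and 1.19 CPM.

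Epidermal differentiation genes had 5 members called lower and 1 called higher of 16 tested (1.02% and 0.557% of all genes), with 12 lower in every 3NG+ library (13.0% of all genes) and a median of −2.27. With 1 library left out, 0 to 3 members were called lower, with 0 without 3NG+ replicate 2. With the 6 libraries alone 8 were called lower (2.58% of all genes under that setting), and with no low-count filter 10 (3.07%). By library totals 7 were called lower (2.05%) and 0 higher. Lgals7, a galectin of stratified epithelia, fell from 117, 129 and 152 CPM to 19.07, 14.8 and 32.5 CPM (log2 fold change −2.57 ± 0.59 SE, FDR = 0.0159). Krtdap, a secreted keratinocyte protein, fell from 91.1, 54.3 and 64.2 CPM to 7.71, 2.33 and 6.79 CPM (log2 fold change −3.61 ± 0.96 SE, FDR = 0.0424). Anxa8 and Ly6a fell as well (log2 fold changes −2.57 and −2.13). The member called higher was Gsta4, a glutathione transferase that was at 218, 207 and 280.1 CPM against 374, 479 and 524 CPM (log2 fold change 0.97 ± 0.27 SE, FDR = 0.0498). Of the list's defining genes, Trp63, the master factor of stratified epithelia, had at most 0.213 CPM in any of the 6 libraries.

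Among the 15 largest falls, Upk1b, a uroplakin of the bladder epithelium, had 189 reads in 3NG- cells against 3 in 3NG+ cells, a pooled ratio of 45.2 (95% exact interval 15.2 to 221, FDR = 0.0405). Parm1, Akr1c14, Sprr2b, Tbc1d9, Tanc2 and C1s also fell, from means between 5.46 and 12.8 CPM to means between 0.144 and 1.83 CPM. Amotl1, an angiomotin at cell junctions, fell from 23.2, 19.2 and 8.12 CPM to 1.01, 2.12 and 3.02 CPM (log2 fold change −2.97 ± 0.51 SE, FDR = 8.89e-04), and Inadl (Patj), a polarity scaffold at tight junctions, fell with a log2 fold change of −2.80. Bhlhe40, a transcriptional repressor, fell from 30.02, 40.7 and 21.8 CPM to 2.03, 4.24 and 3.77 CPM (log2 fold change −3.18 ± 0.72 SE, FDR = 0.013). Gchfr and Parva, a focal adhesion protein, fell with log2 fold changes of −2.69 and −2.68. By the rule, no library of one group overlapped with the other in these genes.

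The promoter of Krt18 is shown as that of the falling keratin with the lowest FDR, at chr15:102028066-102028265 on the plus strand. It holds 2 GGGCGTG matches, in capitals, and no CCAAT match in this window.
Krt18: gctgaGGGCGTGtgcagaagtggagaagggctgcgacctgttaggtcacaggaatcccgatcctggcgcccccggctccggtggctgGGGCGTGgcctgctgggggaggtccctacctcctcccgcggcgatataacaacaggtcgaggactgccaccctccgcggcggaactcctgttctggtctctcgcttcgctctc

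The lists of junction and surface genes held 1 called member each. Of 29 epithelial junction genes, 1 was called lower (1.02% of all genes were), 14 lay lower in every 3NG+ library (13.0% of all genes did) and the median was −0.86. The called member was Cldn6, a claudin of embryonic epithelia, which fell from 65.2, 81.9 and 58.4 CPM to 6.70, 10.2 and 15.3 CPM (log2 fold change −2.65 ± 0.57 SE, FDR = 0.00855). The junction list had 9 called lower with the 6 libraries alone (2.58% of all genes under that setting) and 9 with no low-count filter (3.07%). It had 0 without 3NG+ replicate 2. Spint2, a membrane protease inhibitor, was at 122, 139 and 147 CPM against 126, 159.8 and 141 CPM (log2 fold change 0.064 ± 0.27 SE, FDR = 0.964). Among 13 tested pluripotency surface markers, Cd24a, a small glycosylated surface protein, fell from 134, 137 and 156 CPM to 36.7, 31.8 and 36.99 CPM (log2 fold change −2.01 ± 0.38 SE, FDR = 0.00264), with the 3 values of each group close together. Cd9 and Itgb1 had log2 fold changes of −0.76 and −1.02 (FDR = 0.217 and 0.0729). Cldn6 was also the called member of 17 formative and primed epiblast genes, whose de novo methyltransferases Dnmt3a and Dnmt3b were at log2 fold changes of 0.61 and 0.54.

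Actin cytoskeleton and contractile genes had 6 of 28 members called lower (1.02% of all genes) and 0 higher, with a median of −0.98. Tpm1, a tropomyosin, fell from 385, 237 and 154 CPM to 121, 27.8 and 63.6 CPM (log2 fold change −1.87 ± 0.38 SE, FDR = 0.00459). Cnn2, a calponin, fell from 253, 198 and 159 CPM to 100.2, 33.1 and 55.9 CPM (log2 fold change −1.69 ± 0.33 SE, FDR = 0.00287), and Cald1, caldesmon, from 170.1, 126 and 64.5 CPM to 60.7, 13.6 and 10.4 CPM (log2 fold change −2.11 ± 0.51 SE, FDR = 0.0222). In all 3 the highest library was 3NG- replicate 1. Tpm2, Flna and Capg fell with log2 fold changes of −2.26, −0.92 and −1.36, with overlapping groups for Tpm2 and Flna. The number of called members ran from 0 to 11 when 1 library was left out, with 0 without 3NG+ replicate 2 and 1 without 3NG- replicate 1. Without 3NG- replicate 1 the list median was −0.55.

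Markers of other cell types are set beside these falls. None of 30 fibroblast identity genes was called, while 1 had a log2 fold change above 0 (45.2% of all genes did), 5 lay lower in every 3NG+ library (13.0% of all genes) and the median was −0.85. With no low-count filter 12 were called lower (3.07% of all genes under that setting), and without 3NG+ replicate 1 there were 3 (1.26%). The list summed to 5054, 2597 and 2235 CPM in the 3NG- libraries and 2472, 640.1 and 1482 CPM in the 3NG+ libraries. 3NG- replicate 1 was the highest library and 3NG+ replicate 2 the lowest, and the groups overlapped. The most abundant member, Sparc, was at 973, 549 and 695 CPM against 357, 98.7 and 303 CPM (log2 fold change −1.54 ± 0.47 SE, FDR = 0.0787), and Fn1, fibronectin, had a log2 fold change of −0.58. The blood and macrophage list was likewise highest in 3NG- replicate 1 and was lowest in 3NG+ replicate 3, with sums of 1858, 993 and 154 CPM in the 3NG- libraries and 913, 275 and 98.5 CPM in the 3NG+ libraries. The most abundant member was Lyz2, the lysozyme of macrophages, at 1658, 884 and 96.5 CPM against 797, 222 and 51.01 CPM (log2 fold change −1.30 ± 1.06 SE, FDR = 0.588), with Tyrobp, a macrophage signalling adaptor, at 88.6, 38.2 and 3.51 CPM against 41.6, 4.45 and 0.971 CPM. Both groups were sorted as E-CAD+ and CD44-, and fibroblasts and macrophages commonly carry CD44. Whether any such cells remained after the sort was not tested. The part of cells of these types in the 160 falls was not tested. In sorted bulk samples, fewer cells of a type and less RNA per cell cannot be told apart.

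Other lineages gave few calls. In the primitive endoderm list, 1 of 18 genes was called lower (1.02% of all genes were): Lamb1, a laminin subunit, fell from 39.2, 38.2 and 44.8 CPM to 29.02, 12.1 and 17.6 CPM (log2 fold change −1.06 ± 0.27 SE, FDR = 0.0284), and Lamc1 had a log2 fold change of 0.11. The count was 0 without 3NG- replicate 1 or 3NG- replicate 2, and 3 without 3NG+ replicate 1 (1.26% of all genes under that setting). None of 14 trophoblast genes, 11 neural genes, 9 endothelial genes and 10 two-cell-like genes was called. The trophoblast median was −1.84 at sums of only 76.01, 68.9 and 79.4 CPM in the 3NG- libraries and 32.5, 54.9 and 28.6 CPM in the 3NG+ libraries, and its most abundant members, 1600029D21Rik and Tead4, were at −0.24 and −0.30. The trophoblast median ran from −3.14 to −1.38 with 1 library left out. Stmn2 and Tubb3, the most abundant neural genes, were at log2 fold changes of 0.70 and 0.39, and Pecam1 and Tie1 of the endothelial list at 1.58 and −0.94. Pecam1 is also expressed by ESCs, and was at 4.90, 3.29 and 9.22 CPM against 12.99, 23.7 and 15.9 CPM (FDR = 0.264). Of the two-cell-like genes, Eif1a was at a log2 fold change of −0.075, and Zfp352 at no more than 1.42 CPM in any library.

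**Figure D3:**
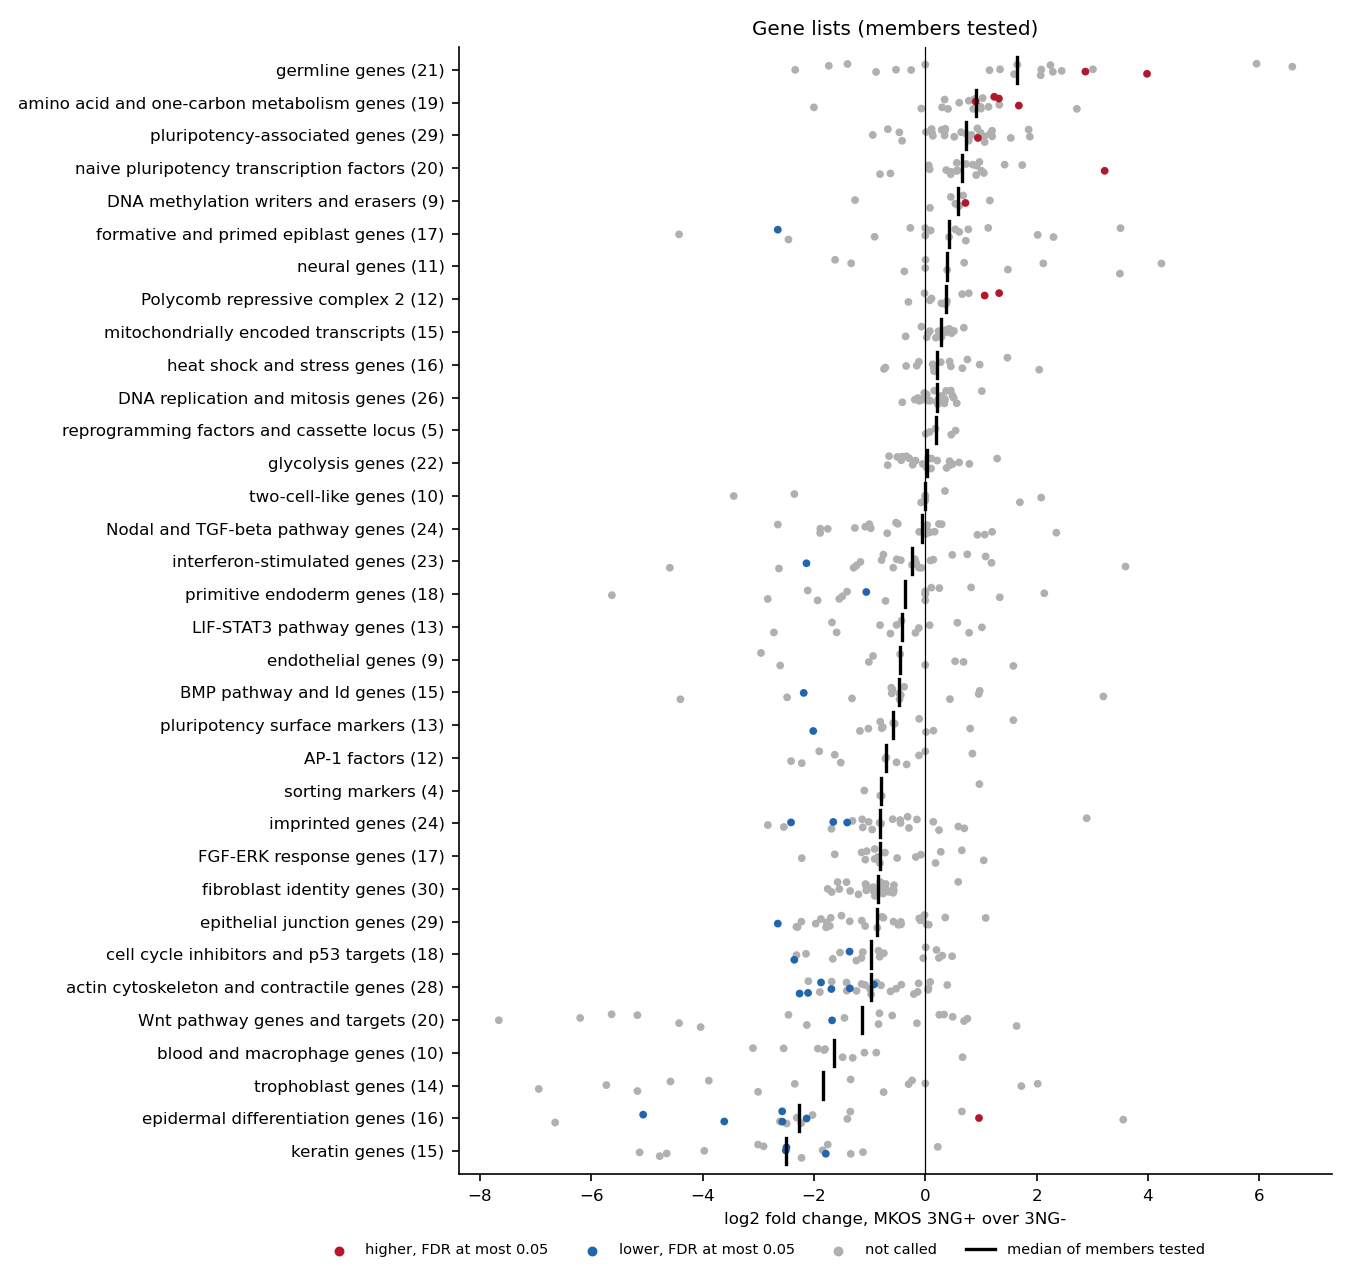
Log2 fold change of every tested member of the 34 gene lists (horizontal axis), ordered by the median (black bars); red, called higher in 3NG+ cells; blue, called lower; grey, not called; vertical scatter within a list has no meaning. Germline and amino acid metabolism genes had the highest medians, keratin and epidermal genes the lowest, and most members in all lists were not called.

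Of 6 signalling lists, 2 held 1 gene called lower each (1.02% of all genes were) and 4 held no called gene. None of 17 FGF-ERK response genes and none of 12 AP-1 factors was called, with medians of −0.82 and −0.71. Fos, which belongs to both, was at 68.3, 79.3 and 88.3 CPM in the 3NG- libraries and 28.4, 12.5 and 34.9 CPM in the 3NG+ libraries (log2 fold change −1.63 ± 0.59 SE, FDR = 0.151), and Etv5 and Jund were at log2 fold changes of 0.28 and −0.70. With 1 library left out the AP-1 median ran from −0.57 to −1.55, the latter without 3NG+ replicate 1. In the BMP pathway and Id list, Id2, an inhibitor of helix-loop-helix factors, fell from 83.4, 94.3 and 65.5 CPM to 23.3, 10.2 and 19.7 CPM (log2 fold change −2.18 ± 0.47 SE, FDR = 0.00855), while its relatives Id1 and Id3 were at −0.46 and −0.38 with overlapping groups. Tcf7l2, a Wnt-regulated transcription factor, fell from 19.9, 15.6 and 25.1 CPM to 5.48, 5.08 and 8.20 CPM (log2 fold change −1.67 ± 0.40 SE, FDR = 0.019) as the called gene of 20 in the Wnt list, in which Ctnnb1 and Sfrp1 were at −0.15 and 0.70. The Wnt list median was −1.15, with 6 genes above 0 (45.2% of all genes were). With 1 library left out this median ran from −1.77 to −0.34 and 0 to 2 genes were called lower. With the 6 libraries alone, 12 of these genes passed the low-count filter. Their median was 0.060, with 6 above 0 and 2 called lower (2.58% of all genes under that setting). No gene was called among 13 of the LIF-STAT3 pathway (Pim3 at 0.79, FDR = 0.108) or 24 of the Nodal and TGF-beta pathway, where Tdgf1, the Nodal co-receptor, and Lefty2, a Nodal inhibitor, were at 0.30 and 1.20 and the list median of −0.055 was near the −0.039 of all genes. Without 3NG+ replicate 1, 4 Nodal and TGF-beta genes were called lower (1.26% of all genes under that setting) and the median was −0.32. With no low-count filter 2 were called higher (1.42%) and 6 lower (3.07%).

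B2m, the invariant chain of MHC class I, was the called gene of 23 interferon-stimulated genes (1.02% of all genes were called lower) and fell from 632, 422 and 259.9 CPM to 154, 65.3 and 79.9 CPM (log2 fold change −2.13 ± 0.41 SE, FDR = 0.00287). Ifitm2 and Ifitm3, the most abundant of that list, were at 0.48 and −0.19. Of 24 imprinted genes, 3 fell, namely Peg10 from 54.7, 64.5 and 58.8 CPM to 23.3, 11.2 and 21.8 CPM (log2 fold change −1.65 ± 0.41 SE, FDR = 0.0249) and its neighbour Sgce and the noncoding Rian with log2 fold changes of −2.41 and −1.40 (1.02% of all genes fell). With 1 library left out 0 to 2 imprinted genes were called lower, with 0 without 3NG- replicate 1, 3NG+ replicate 2 or 3NG+ replicate 3 and 1 without 3NG- replicate 2. The D-type cyclins Ccnd1 and Ccnd2, which drive entry into the cell cycle, were the 2 called lower of 18 genes in the list of cell cycle inhibitors and p53 targets (1.02% of all genes were), and are activators of the cycle. Neither they nor another member of that list was called without 3NG- replicate 1, 3NG- replicate 2 or 3NG+ replicate 2, and 1 to 3 members were called in the other leave-one-out fits. With the 6 libraries alone 6 members were called lower (2.58% of all genes under that setting), and with no low-count filter 7 (3.07%). Ccnd2 fell from 203, 106 and 47.4 CPM to 39.97, 9.32 and 20.6 CPM (log2 fold change −2.35 ± 0.60 SE, FDR = 0.03), and Ccnd1 from 90.6, 109 and 82.4 CPM to 32.9, 19.07 and 57.05 CPM (log2 fold change −1.36 ± 0.37 SE, FDR = 0.0498). Cdkn1a (p21) was at 382, 323 and 225 CPM against 145, 87.3 and 89.6 CPM without overlap (FDR = 0.0512).

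Lists of general cell functions held 0 called genes. No gene was called among 26 of DNA replication and mitosis, 22 of glycolysis, 16 of heat shock and stress and 15 mitochondrially encoded transcripts, with medians of 0.21, 0.034, 0.22 and 0.29. By library totals these 4 medians were 0.031, −0.13, 0.052 and 0.11. The most abundant members were Top2a and Cdk1 (0.16 and 0.025), Gapdh and Pkm (0.21 and 0.10), Hsp90aa1 and Hsp90ab1 (0.16 and 0.28), and mt-Rnr2 and mt-Atp8 (0.24 and 0.025).

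The called genes were next placed along MKOS reprogramming, using libraries outside the contrast. In MKOS MEFs, 37 of the 87 genes that rose had a mean under 1 CPM (42.5%, against 21.9% of all genes tested). Their mean was higher in doxycycline-free MKOS iPSCs than in MKOS MEFs for 85 of 87 (97.7%, against 49.1% of all genes), and higher in these iPSCs than in E-CAD+ 2NG- cells, which lack ICAM1, for 84 (96.6%, against 47.8% of all genes). Of the 160 genes that fell, 148 had a lower mean in iPSCs than in MEFs (92.5%, against 48.04% of all genes). The iPSC and MEF means rest on 2 libraries each. They are not part of the difference that chose the genes, although these libraries shared its low-count filter and estimate of spread.

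The 87 genes summed to 3900 and 4024 CPM in MKOS MEFs and to 6821 to 7589 CPM in 2NG- cells. They reached 7839, 7662 and 8465 CPM in 3NG- cells, 16380.2, 19755 and 17003 CPM in 3NG+ cells, and 15374 and 15506 CPM in iPSCs. The choice of the genes fixed the gap between 3NG- and 3NG+ cells and bears on the level of both sums, so neither was compared with the other conditions. Among single genes, Rpl10l was at 292 ± 86.03 CPM (SD, n = 3) in 3NG+ cells and 187 ± 59.8 CPM (SD, n = 2) in iPSCs, and Cox7b2 at 82.7 ± 61.5 CPM and 18.1 ± 9.68 CPM. Smc1b was at 6.86 ± 3.49 CPM in 3NG+ cells and 47.7 ± 5.82 CPM in iPSCs. These genes were chosen as rises, which bears on their 3NG+ levels as well, so no difference from iPSCs was read from them. Krt8, in contrast, was at 5.47 CPM in MEFs, 752 in 2NG- cells, 299.5 in 3NG- cells, 86.95 in 3NG+ cells and 7.94 in iPSCs, highest in 2NG- cells. Lgals7 was also highest in 2NG- cells, with 16.01, 495, 133, 22.1 and 3.01 CPM.

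**Figure D4:**
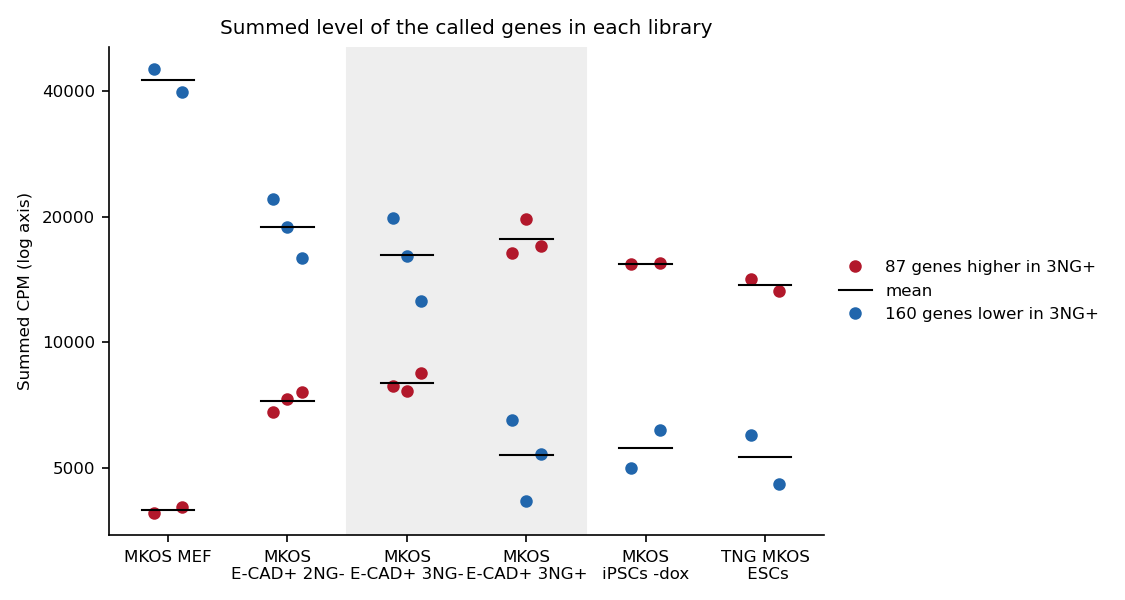
Summed CPM (vertical log axis) of the 87 genes called higher (red) and the 160 called lower (blue) in each library of 6 MKOS conditions; points are libraries, bars are means, and the shaded conditions are those compared to choose the genes. Red points lay between 6821 and 7589 CPM in 2NG- cells and at 13265 CPM or more in iPSCs and ESCs; the heights of the shaded points were set in part by the choice of the genes.

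OKMS reprogramming, in which the same 4 factors stand in another order, offers the same sorted step in 6 other libraries. By the study's account its Klf4 is also a short form that lacks N-terminal residues. Factor order and the form of Klf4 therefore cannot be told apart in these libraries. The study reports that OKMS with the long Klf4 showed surface marker and reporter changes similar to MKOS. The series holds no libraries of those cells. The values of these 6 OKMS libraries are not part of the MKOS difference. They entered the same fit, however, and so its low-count filter and its estimate of spread. OKMS 3NG+ replicate 2 and OKMS 3NG- replicate 3 are among the 7 sorted libraries that the study did not average. OKMS 3NG+ replicate 2 held 1429717 reads on transcripts, the fewest in the series. There a count of 3 reads corresponds to 2.10 CPM by library totals. Between OKMS 3NG- and 3NG+ E-CAD+ cells 979 genes (6.26%) differed, 478 higher (3.06%) and 501 lower (3.21%). Of the 87 genes that rose in MKOS cells, 83 had a log2 fold change above 0 in OKMS cells (44.3% of all genes did) and 55 were called higher there. Of the 160 that fell, 154 were below 0 (52.7% of all genes) and 70 were called lower. The median OKMS changes of the 2 sets were 1.12 and −1.23, against −0.059 for all genes. Rpl39l, Rpl10l and Tuba3a had OKMS log2 fold changes of 3.99, 5.49 and 5.18, and Krt18 and Cd24a of −2.39 and −2.36, all called. Of the 19 naive pluripotency factors not called in MKOS cells, 9 were called higher in OKMS cells (3.06% of all genes were) and 10 were not, Tfcp2l1 and Klf4 among them (FDR = 0.074 and 0.469). In OKMS cells Nanog changed by 1.90 (FDR = 0.011), Zfp42 by 2.81 and Dppa5a by 2.65. The differences between the cassettes for these 3 genes did not pass the interaction test (FDR = 0.823, 0.355 and 0.355).

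An interaction test asked which genes changed differently in the 2 cassettes from 3NG- to 3NG+. It called 4 genes (0.0256% of those tested), with 1163 at an unadjusted p under 0.05 (7.44%). Isyna1, which makes inositol phosphate from glucose phosphate, was the gene called in both tests. It rose in MKOS cells from 37.3, 47.5 and 59.3 CPM to 119, 98.7 and 103 CPM (log2 fold change 1.16 ± 0.31 SE, FDR = 0.0435) and had a log2 fold change of −1.36 in OKMS cells, a difference of 2.52 ± 0.45 (SE, FDR = 0.0115). The other 3 genes, named after their values were seen, were not called in MKOS cells. Zdbf2, an imprinted gene, was at 4.58, 4.29 and 2.21 CPM against 17.7, 8.26 and 10.5 CPM in MKOS cells and was lower in OKMS 3NG+ cells (−1.72, FDR = 0.0191). Khdc3, a subunit of the oocyte maternal complex, was at 18.4, 22.6 and 94.6 CPM against 21.5, 20.98 and 40.01 CPM in MKOS cells, with 3NG- replicate 3 far above the other libraries, and had a log2 fold change of 5.66 in OKMS cells. Its mean in OKMS 3NG- cells was 0.221 CPM, near 0, so the size of that change and of the difference depends on the prior count. Gpa33, an epithelial surface glycoprotein, had log2 fold changes of −0.45 in MKOS and 2.87 in OKMS cells.

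**Figure D5:**
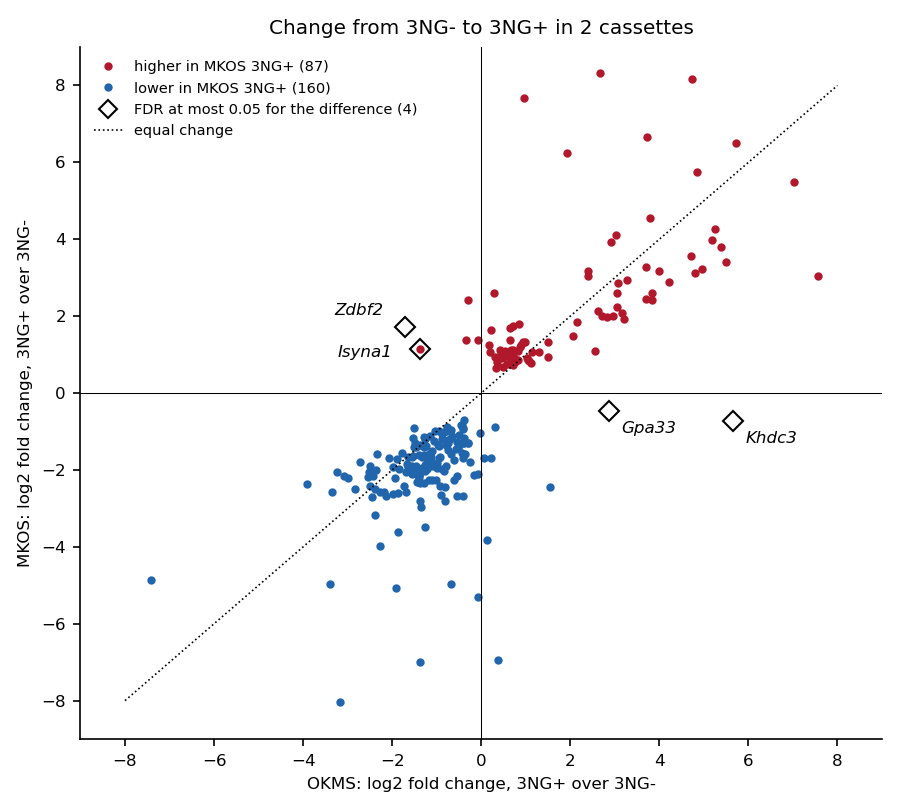
Log2 fold change from 3NG- to 3NG+ in MKOS cells (vertical axis) and OKMS cells (horizontal axis) for the 87 (red) and 160 (blue) genes called in MKOS cells; diamonds mark the 4 genes called for the difference between cassettes, and the dotted line marks equal change. Most points shared the sign of the change, and the 4 diamonds lay in quadrants of opposite sign.

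Promoter sequence was described for all called genes with a RefSeq entry, 68 of the 87 that rose and 118 of the 160 that fell, beside 11964 of the 15630 genes tested. Windows of 300 bases, 250 before to 50 after the start site, were searched for 6 motifs on both strands. CCAAT was found in 60.3% of promoters of the genes that rose, 29.7% of those that fell and 39.3% of all. The E-box CACGTG was found in 13.2%, 4.24% and 10.0%. The KLF-type elements GGGCGTG (17.6%, 15.3% and 14.8%) and GGGTGTG (10.3%, 8.47% and 8.66%) differed less, and the POU octamer ATGCAAAT was in 2 of 68, 3 of 118 and 1.57%. The ESRRB element TCAAGGTCA was in 0 of 68, 1 of 118 and 0.259%. The median number of CpG dinucleotides in a window was 16.5, 16.5 and 20. A match is a description of sequence and does not show binding, and several of the genes that rose are copies with related promoters.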

How the data were processed

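The authors deposited read counts per transcript for 48 STRT libraries, with no normalisation; the submitters' processing notes name Bowtie 0.12.7 and mm10, whereas the study's methods name mm9. Gene positions in the deposited table were checked against RefSeq GRCm38, where 84.0% of 20607 shared symbols lay within 200 bases of a gene end, against 4.01% of 21433 for NCBIM37. Repeat and spike-in rows were not tested. Rows were tested with edgeR 4.0.16 (R 4.3.3; TMM, filterByExpr by condition, quasi-likelihood F test, 20 conditions, Benjamini-Hochberg adjustment over 15630 genes, FDR at most 0.05). The SE of a log2 fold change is its size divided by the square root of F. DESeq2 1.42.0 gave an alternative.

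Members and gene lists were chosen with earlier results of these data known. Named genes were the sorting markers, the factors, the 15 largest non-overlapping called changes each way with a mean of at least 5 CPM in the higher group, and up to 6 called members of each list (or its 2 most abundant members where fewer than 2 were called). Zfp42, Esrrb, Tfcp2l1, Dppa2, Dppa3, Dppa4, Dazl, Sycp3, Rhox5, Ddx4, Krt5, Krt14, Trp63, Tdh, Cdkn1a, Trim28, Rpl27a and Rpl35a were chosen after their values were seen. Some genes that this rule names are not reported here. Intervals and floors cover counting error only, since the reads carry no molecular identifiers. The steps were tested on simulated data.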

Additional observations from a re-analysis of the deposited data

Results flagged for a closer look

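The change from 3NG- to 3NG+ differed between the MKOS and OKMS cassettes for 4 genes by the interaction test (edgeR, Benjamini-Hochberg adjusted over all genes). The difference, MKOS minus OKMS on the log2 scale, was 3.43 for Zdbf2 (FDR = 0.0316), 2.52 for Isyna1 (FDR = 0.0115), −3.33 for Gpa33 (FDR = 0.0091) and −6.37 for Khdc3 (FDR = 0.0285), whose size depends on the prior count. Without MKOS 3NG+ replicate 1 the test called 0 genes, and without OKMS 3NG- replicate 3 it called 14.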

How the results depend on the processing

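The 247 calls (87 higher, 160 lower) became 635 (251 and 384) with the DESeq2 Wald test, 375 (55 and 320) with library totals, 887 (281 and 606) with no low-count filter, 545 (237 and 308) with only the 6 libraries compared and 559 (208 and 351) without the 7 sorted libraries that the study did not average (3NG- replicate 3 among them). A minimum of 5 CPM gave 305 (131 and 174). Leaving out 1 library gave 56 to 279 calls, 22 to 81 higher and 28 to 198 lower. The 4 interaction calls became 22, 163, 11 and 46 with the DESeq2 Wald test, no filter, the libraries compared and without the 7 libraries, and 0 to 14 with 1 library left out. The cause was not tested. Of 70 named called genes, 0 changed sign and 13 were called under every alternative.

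With the replicate number as a block there were 422 calls (144 and 278), including all 247, and in the libraries compared only 1087 (451 and 636; 25 for the interaction). Deviations of same-numbered libraries correlated at 0.187, −0.0008 and 0.196, and since 1 of the 3 pairs was not correlated the number was not taken to pair the samples. Libraries of replicates 1 and 3 matched best with their own number, a hint from the data and not from the design, and the labels do not say what a number marks.

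Sign changes concerned genes that were not called. With library totals the log2 fold change was −0.092 for Klf4, −0.17 for Sp3, −0.056 for Spp1, −0.092 for Dnmt1, −0.12 for Spint2, −0.016 for Top2a, −0.15 for Cdk1, −0.057 for Pkm, −0.015 for Hsp90aa1, −0.14 for mt-Atp8 and −0.063 for Lamc1. Without the 7 libraries it was 0.057 for Ifitm3, −0.0046 for mt-Atp8 and 0.46 for Khdc3. With 1 library left out it ran from −0.048 to 0.28 for Klf4, −0.050 to 0.11 for Sp3, −0.20 to 0.53 for Spp1, −0.19 to 0.0068 for Eif1a, −0.028 to 0.14 for Spint2, −0.26 to 0.10 for Ctnnb1, −0.71 to 0.037 for Ifitm3, −0.024 to 0.13 for Cdk1, −0.060 to 0.26 for Pkm, −0.034 to 0.084 for mt-Atp8, −0.056 to 0.23 for Lamc1, −0.95 to 0.070 for 1600029D21Rik and −1.07 to 0.43 for Khdc3. Depth limits genes under 1 CPM, where 3 reads stand for 0.301 to 0.636 CPM.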
